A study of Mus musculus with 29 samples.

Results

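The genes described here are those of the Wnt family of secreted ligands with their receptors and secreted modulators, followed through aging in the tibialis anterior (TA) muscle of the mouse, a fast muscle of the lower hind limb. Which genes of the family are members was set by gene symbol alone: the Wnt ligands, the Frizzled receptors (Fzd), the coreceptors Lrp5 and Lrp6, the R-spondins (Rspo) and their receptors (Lgr4, Lgr5, Lgr6), the secreted inhibitors of the Sfrp (with Frzb), Dkk and Wif1 families, and Axin1 and Axin2. They were 50 of the 22537 gene symbols in the count table, namely 19 ligands, 12 Frizzled and Lrp receptors, 3 R-spondin receptors, 4 R-spondins, 10 secreted inhibitors and 2 Axins.

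Wnt ligands are lipid-modified proteins that act over short distances. In the canonical branch a ligand binds a Frizzled together with Lrp5 or Lrp6, which stops a complex built on Axin from marking beta-catenin for destruction, and beta-catenin then acts with TCF/LEF factors on target genes, Axin2 among them. Other branches run through Frizzled without beta-catenin, and Wnt5a is the usual example. Sfrp proteins, Frzb and Wif1 bind the ligands outside the cell, Dkk1 and Dkk2 bind the Lrp coreceptors, and R-spondins bound to Lgr receptors keep Frizzled receptors at the cell surface. In muscle the pathway is known from satellite cells, fibrosis and the neuromuscular junction.

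Poly-A RNA of the whole TA of male C57BL/6 mice was sequenced at 6m (n = 7), 24m (n = 7) and 28m (n = 8, given in the labels as 28 months or older). The groups were set by age, with no assigned drug treatment or genetic change. All muscles were taken after tests of physical function that included treadmill and voluntary wheel running. The 24m mice were sequenced with the 6m mice in the first run. A second library of each 6m mouse was prepared and sequenced beside the 28m mice in the second run. Thus 29 libraries came from 22 mice and both age comparisons share their 6m animals. Levels are given as CPM, the count of a gene relative to the scaled total of its library. A gene was called where edgeR's quasi-likelihood test gave an adjusted p under 0.05, with adjustment by Benjamini-Hochberg for every gene tested. Total counts per library were between 17633475 and 33499162, and the 50 members held 0.0499% ± 0.00263 of them (SD, n = 7) at 6m in the second run and 0.0372% ± 0.00585 (SD, n = 8) at 28m.

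Markers of fast fibres summed to between 159300 and 195200 CPM at 28m and between 167900 and 187000 CPM at 6m in the second run, so the fibre type of the labelled muscle was present. Over the members, the 6m library of mouse 4 in the first run differed most from its repeat: the SD of the log2 difference between both libraries was 0.578 over 32 members for this mouse and between 0.240 and 0.345 for the other 6 mice. In whole muscle, fewer cells of a type and less RNA per cell cannot be told apart.

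Part of the family was hardly detected in TA. At 28m 19 of the 50 members were too low to be tested, beside 9543 of all 22537 genes, so this is no trait of the family. Counts passed the filter on low counts in both age comparisons for 31 members and in the 24m comparison alone for Wnt10b, a ligand that reached 34 counts in its highest 6m library and 10 in its highest 28m library. At 28m Wnt10b was called lower in fits that admitted it, among them those of DESeq2, of edgeR with no filter on low counts and of edgeR with the 6m libraries of the first run. The last of these fits kept the filter. With 4 to 10 counts in the 28m libraries, Wnt10b could pass it only through the 6m group, so a lower call there is no separate support. The other 18 passed in neither. Of these, Wnt1, Wnt3, Wnt3a, Wnt7a, Wnt8a, Wnt8b, Dkk1, Dkk4 and Rspo4 had no more than 3 counts in any of the 29 libraries, and nothing can be said of their direction at this depth. The remaining 9 reached 24 counts for Wnt2, 13 for Lgr5, 11 for Wnt10a, 10 for Rspo1, 9 for Lgr6, 9 for Wnt16, 8 for Wnt7b, 5 for Wnt9b and 5 for Rspo2 in their highest library. Rspo2 was also called at 28m in the fit with no filter on low counts, at counts this low. Sums of exon length differ between genes, so levels are compared between members as CPM per kb of exon.

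On that scale the receptors led. In the 6m mice of the second run, Fzd7, a Frizzled known from satellite cells, stood highest at 14.6 ± 2.84 CPM per kb, followed by Lgr4 at 8.91 ± 0.505 and Fzd9 at 7.00 ± 1.32 (SD, n = 7). The coreceptor Lrp6 was at 6.65 ± 0.496 CPM per kb, Fzd4 at 6.54 ± 1.42, the ligand Wnt4 at 6.44 ± 1.10, Axin1 at 6.41 ± 0.643 and the ligand Wnt9a at 6.36 ± 0.330. These 5 neighbours and Fzd9 lay within the spread between mice and cannot be ordered among themselves. Dkk3 was the highest secreted inhibitor at 5.07 ± 1.02 CPM per kb, and Rspo3, the only R-spondin past the filter, stood at 0.198 ± 0.0672. Fzd3 was lowest of the tested members at 0.0428 ± 0.00879 CPM per kb.

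**Figure D1:**
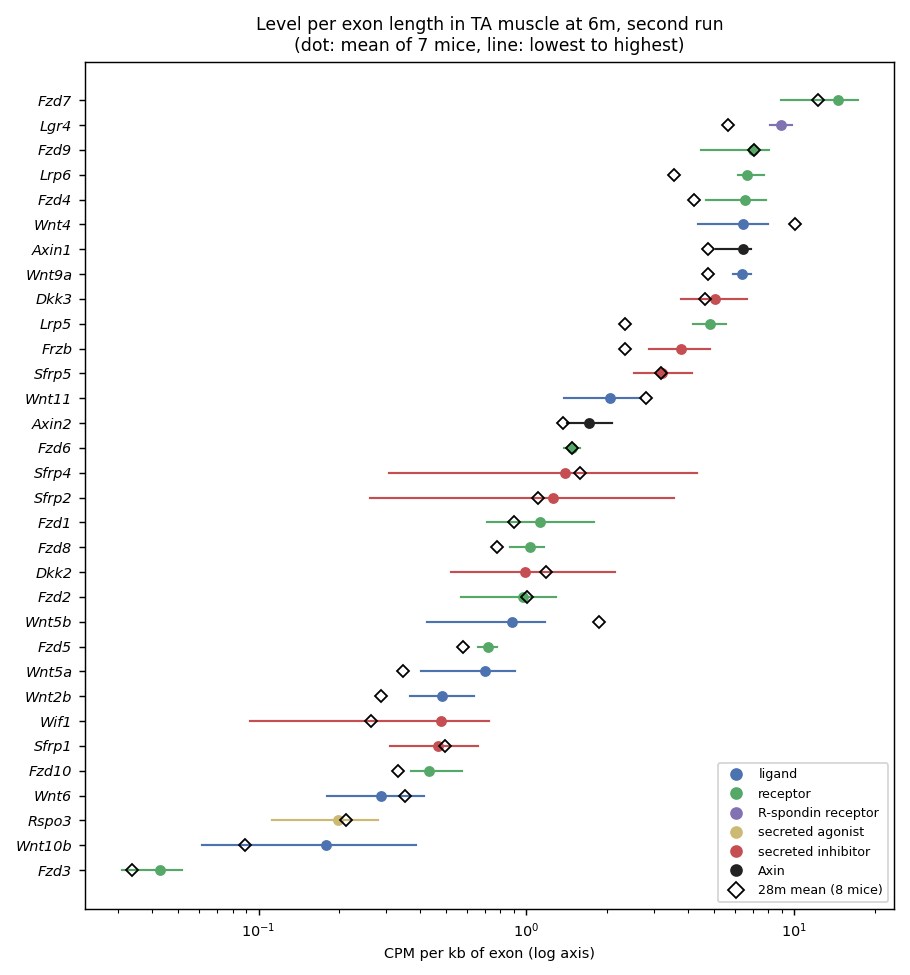
Level of the 32 tested Wnt genes in TA, in CPM per kb of exon on a log axis, with 1 row per gene ordered by its mean at 6m. Coloured dots are means of 7 mice at 6m in the second run with lines from the lowest to the highest mouse, open diamonds are means of 8 mice at 28m, and the rows run from Fzd3 at 0.0428 to Fzd7 at 14.6 CPM per kb.

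The comparison of 28m with 6m mice addressed how expression differs at the oldest age. Of the 31 members tested, 12 were called, 10 lower and 2 higher, which is 38.7% of them, beside 47.3% of the 12994 genes tested. Lower calls made up 32.3% of the members and 22.9% of all genes, and higher calls 6.45% and 24.3%. The median log2 fold change of the tested members was -0.33, beside 0.01 over all genes tested, with 22 members below 0 and 9 above. It was -0.21 after removal of a trend with exon length and GC content and -0.16 with the 6m libraries of the first run. Calls with a log2 fold change of 1 or more in size were those of Lrp5, Wnt5a and Wnt5b, or 9.68% of the members beside 5.7% of all genes. All 3 kept their call and were under 1 in size after removal of that trend (-0.71, -0.76 and 0.96) and against the first-run libraries of the 6m mice (-0.86, -0.90 and 0.97).

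Both Lrp coreceptors fell. Lrp6 lay between 84.05 and 105.4 CPM at 6m (7 mice, median 90.2) and between 28.6 and 70.3 CPM at 28m (8 mice, median 45.8), so every old mouse was below every 6m library of that run. In the first run the library of 6m mouse 4 was at 53.55 CPM, inside the range of the old mice. This gave a log2 fold change of -0.93 (SE 0.167, adjusted p = 0.000865 by edgeR's quasi-likelihood test), the lowest p of all members. Lrp6 spans chr6:134446476-134566965 on the minus strand (GRCm38). Lrp5 lay between 40.8 and 54.0 CPM (median 46.2) at 6m and between 10.1 and 37.9 CPM (median 20.7) at 28m, without overlap in that run, while the first run held 6m libraries down to 20.1 CPM. Its log2 fold change was -1.08 (SE 0.238, adjusted p = 0.00257 by edgeR's quasi-likelihood test). The gene spans chr19:3584828-3686564 on the minus strand (GRCm38).

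Among the Frizzled receptors 1 of 10 was called by edgeR, where 47.3% of all genes were. Fzd8 lay between 5.19 and 6.97 CPM (median 5.97) at 6m and between 3.07 and 5.35 CPM (median 4.74) at 28m, with an overlap at the edge. It fell by 0.43 on the log2 scale (SE 0.117, adjusted p = 0.00774, edgeR), and with the 6m libraries of the first run the value was -0.39 and missed the threshold (adjusted p = 0.0502, edgeR). Fzd7 lay between 40.3 and 78.1 CPM (median 68.9) at 6m and between 28.0 and 76.7 CPM (median 58.6) at 28m, and the ranges overlapped almost entirely. Its log2 fold change of -0.28 (SE 0.180) did not pass the test (adjusted p = 0.212, edgeR). Fzd4, a receptor known from vessel formation, came closest of the rest, with a log2 fold change of -0.66 (SE 0.272, adjusted p = 0.0557, edgeR). It was called lower by DESeq2 (adjusted p = 0.0411) and by limma-voom (adjusted p = 0.0289), and not after removal of the length and GC trend (adjusted p = 0.113, edgeR). The other 7 did not pass either, with log2 fold changes of -0.40 for Fzd10, -0.36 for Fzd3, -0.35 for Fzd1, -0.33 for Fzd5, -0.03 for Fzd6, -0.02 for Fzd9 and 0.01 for Fzd2. In the fits that left out 1 mouse, Fzd5 was called without 28m mouse 1 or 28m mouse 4, and Fzd10 without 28m mouse 6. Of all genes 43.9%, 51.2% and 49.5% were called in these fits.

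Lgr4, the only R-spondin receptor past the filter, fell. It lay between 47.9 and 57.5 CPM (median 52.4) at 6m and between 18.4 and 48.1 CPM (median 34.8) at 28m, and the highest old mouse just reached the lowest 6m mouse. The log2 fold change was -0.68 (SE 0.139, adjusted p = 0.00170, edgeR). Rspo3, an R-spondin made by endothelial cells among others, lay between 0.347 and 0.859 CPM (median 0.621) at 6m and between 0.419 and 0.862 CPM (median 0.661) at 28m. The groups coincided, and its log2 fold change of 0.08 (SE 0.237) did not pass the test (adjusted p = 0.784, edgeR).

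**Figure D2:**
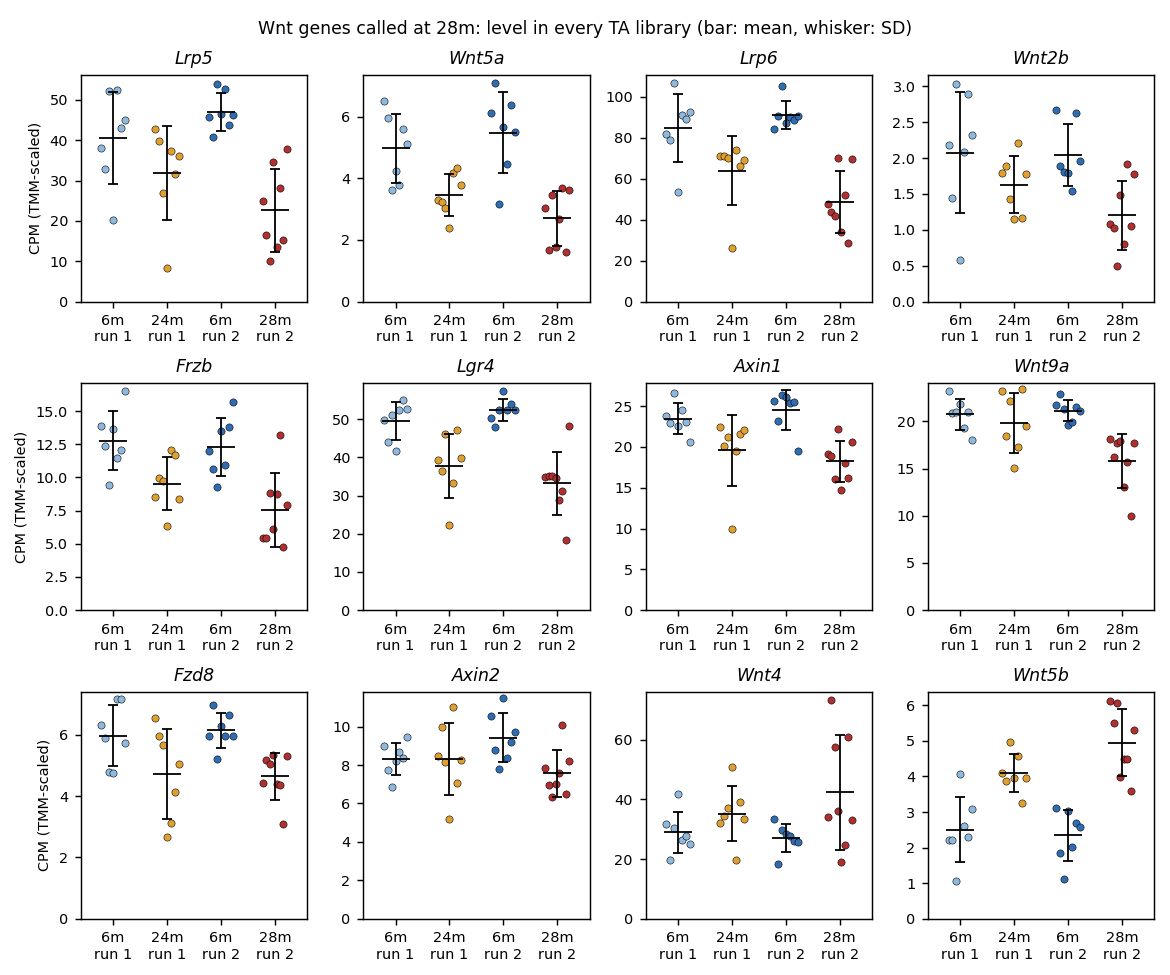
CPM (linear axis from 0) of the 12 Wnt genes called at 28m in each of the 29 TA libraries, in groups by age and run, with the mean as a bar and the SD as a whisker. The 28m mice lie below all 6m mice of the second run for Lrp5, Lrp6 and Wnt9a and above them for Wnt5b, and the other genes overlap.

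The ligands moved in both directions. Of 7 ligands tested at 28m, 3 fell and 2 rose, where 22.9% of all genes were called lower and 24.3% higher. The paralogs Wnt5a and Wnt5b, both known for signalling without beta-catenin, went opposite ways. Wnt5a lay between 3.16 and 7.09 CPM (median 5.68) at 6m and between 1.61 and 3.70 CPM (median 2.87) at 28m, where the ranges overlapped. Its log2 fold change was -1.05 (SE 0.216, adjusted p = 0.00174, edgeR). Wnt5b lay between 1.13 and 3.12 CPM (median 2.58) at 6m and between 3.598 and 6.13 CPM (median 4.91) at 28m, with every old mouse above every 6m library of that run, while the highest 6m library of the first run was at 4.07 CPM. The log2 fold change was 1.05 (SE 0.189, adjusted p = 0.000887, edgeR). Wnt5a spans chr14:28504750-28527448 on the plus strand and Wnt5b chr6:119432531-119544347 on the minus strand (GRCm38).

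The log2 ratio of Wnt5b to Wnt5a per kb of exon was 0.30 ± 0.36 (SD, n = 7) at 6m and 2.49 ± 0.44 (SD, n = 8) at 28m. In the first run it was 0.51 ± 0.62 for the 6m mice and 1.82 ± 0.39 for the 24m mice (SD, n = 7 each). The ratio joins 2 genes already described, so it is given without a test. Wnt5b was higher than Wnt5a on this scale in 6 of 7 mice at 6m in the second run and in 8 of 8 at 28m.

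Wnt9a, a ligand known from joint and cartilage development, lay between 19.6 and 22.9 CPM (median 21.3) at 6m and between 9.97 and 18.2 CPM (median 16.96) at 28m, without overlap in that run. It fell by 0.45 on the log2 scale (SE 0.113, adjusted p = 0.00535, edgeR). Wnt2b lay between 1.54 and 2.67 CPM (median 1.89) at 6m and between 0.489 and 1.91 CPM (median 1.06) at 28m, with overlap. It fell by 0.78 on the log2 scale (SE 0.241, adjusted p = 0.0149, edgeR), and with the 6m libraries of the first run the value was -0.80 and missed the threshold (adjusted p = 0.0678, edgeR).

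Wnt4, known from kidney and gonad development and here at a level per length like that of Wnt9a, lay between 18.3 and 33.3 CPM (median 27.7) at 6m and between 18.98 and 73.35 CPM (median 35.1) at 28m. Some old mice stood far above the 6m range while others lay inside it. The log2 fold change was 0.62 (SE 0.241, adjusted p = 0.0446, edgeR), and the call was the least stable of the 12: it held in 6 of 15 fits that each left out 1 mouse. Wnt11 (0.41, SE 0.198, adjusted p = 0.0934, edgeR) and Wnt6 (0.28, SE 0.263, adjusted p = 0.394, edgeR) did not pass.

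Summed over the ligands, the level was 17.6 ± 1.33 CPM per kb at 6m (SD, n = 7) and 20.8 ± 4.20 at 28m (SD, n = 8), a description without a test. Wnt4 made up 36.5% ± 5.51 of that sum at 6m and 46.5% ± 12.5 at 28m. The share of Wnt9a was 36.2% ± 3.05 at 6m and 23.6% ± 5.91 at 28m. Both ligands held near-equal shares at 6m, and their mean shares stood apart at 28m. The 28m ranges still met, at 29.2% to 63.8% for Wnt4 and 12.7% to 29.3% for Wnt9a. The shares are parts of 1 sum, so a higher level of Wnt4 lowers the share of Wnt9a by itself.

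Of the 8 secreted inhibitors tested at 28m, 1 was called, where 47.3% of all genes were. Frzb, an Sfrp-type inhibitor that binds Wnt proteins outside the cell, lay between 9.31 and 15.7 CPM (median 12.03) at 6m and between 4.80 and 13.2 CPM (median 7.01) at 28m, with 1 old mouse inside the 6m range. It fell by 0.73 on the log2 scale (SE 0.195, adjusted p = 0.00741, edgeR). Dkk3, a divergent member of the Dkk family, lay between 12.6 and 22.3 CPM (median 17.1) at 6m and between 4.80 and 36.9 CPM (median 12.2) at 28m. The old mice fell on both sides of the 6m mice, and the log2 fold change of -0.16 (SE 0.336) did not pass (adjusted p = 0.714, edgeR). Wif1, which binds Wnt proteins directly, ranged from 0.226 to 1.77 CPM at 6m and from 0 to 1.96 CPM at 28m. The log2 fold change was -0.91 (SE 0.586, adjusted p = 0.205, edgeR). The log2 fold changes of Sfrp2, Sfrp5, Sfrp1, Sfrp4 and Dkk2 were -0.23, -0.03, 0.06, 0.14 and 0.21, none of which passed.

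Both Axins fell. Axin1, a scaffold of the destruction complex, lay between 19.5 and 26.4 CPM (median 25.5) at 6m and between 14.7 and 22.2 CPM (median 18.4) at 28m, and the 6m mice overlapped the old ones at their lowest value. The fall was by a log2 fold change of -0.45 (SE 0.0988, adjusted p = 0.00236, edgeR). Axin2, a scaffold and a textbook target of beta-catenin, lay between 7.79 and 11.5 CPM (median 9.23) at 6m and between 6.36 and 10.1 CPM (median 7.28) at 28m, with overlap. Its log2 fold change was -0.34 (SE 0.114, adjusted p = 0.0224, edgeR), and the call held in 13 of 15 fits that each left out 1 mouse. After removal of a trend with exon length and GC content from each library it was -0.14 (adjusted p = 0.262, edgeR).

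Separation of all old mice from all 6m libraries of the second run was seen for 4 of the 31 members (Lrp5, Lrp6, Wnt9a and Wnt5b), or 12.9%, beside 12.4% of all genes tested, a share close to the background. With the first-run libraries of these 6m mice all 4 overlapped and 0 of 31 members were separated, beside 2.11% of all genes. Removing the length and GC trend also took the call of Fzd8 (-0.22, adjusted p = 0.126, edgeR) and left smaller falls of the coreceptors: Lrp6 was then at -0.50 and Lrp5 at -0.71, both still called. The members called lower had a median exon length of 5695 bases (n = 10), those called higher 3424 (n = 2), and all tested genes 4491.

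Promoter windows, from 250 bases before to 50 after a RefSeq start site (GRCm38.p6), were at hand for 32 of the 50 members in 35 windows. The TCF/LEF motif, read as CTTTGAT or CTTTGAA on either strand, was found in 3 of them (Wnt5b, Wnt11 and Dkk1), or 8.57%, beside 8.65% of all 32851 windows. The members' windows were rich in CpG, with a median of 26 CpG and 67.7% GC beside 7 and 52.7% over all windows. A match is a description of the letters only. To let the reader see these sequences, 4 windows of called members are printed 5′ to 3′ in lower case with the motif in capitals: Wnt5b (chr6:119449337-119449636, minus strand, the last of its 3 windows in the table, with the motif 71 bases before the start), Wnt4 (chr4:137277385-137277684, plus strand), Axin2 (chr11:108920099-108920398, plus strand) and Lgr4 (chr2:109917397-109917696, plus strand). The last 3 hold no match, Axin2 as a textbook target included.
Wnt5b: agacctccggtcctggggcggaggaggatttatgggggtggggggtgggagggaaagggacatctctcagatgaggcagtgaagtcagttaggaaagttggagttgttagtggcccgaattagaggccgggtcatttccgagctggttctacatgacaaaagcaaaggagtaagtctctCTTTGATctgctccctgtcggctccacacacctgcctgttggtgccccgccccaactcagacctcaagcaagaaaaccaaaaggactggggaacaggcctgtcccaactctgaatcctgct
Wnt4: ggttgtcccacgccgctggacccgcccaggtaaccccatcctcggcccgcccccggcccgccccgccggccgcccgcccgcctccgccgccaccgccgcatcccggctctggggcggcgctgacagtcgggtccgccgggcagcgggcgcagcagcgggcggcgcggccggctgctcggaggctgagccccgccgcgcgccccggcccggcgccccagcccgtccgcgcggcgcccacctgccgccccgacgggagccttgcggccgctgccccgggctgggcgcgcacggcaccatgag
Axin2: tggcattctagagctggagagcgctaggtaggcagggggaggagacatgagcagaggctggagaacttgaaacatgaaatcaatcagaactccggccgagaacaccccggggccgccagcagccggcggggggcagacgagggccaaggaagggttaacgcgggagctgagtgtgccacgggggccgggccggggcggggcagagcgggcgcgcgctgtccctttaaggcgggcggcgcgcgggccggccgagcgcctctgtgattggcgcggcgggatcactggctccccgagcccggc
Lgr4: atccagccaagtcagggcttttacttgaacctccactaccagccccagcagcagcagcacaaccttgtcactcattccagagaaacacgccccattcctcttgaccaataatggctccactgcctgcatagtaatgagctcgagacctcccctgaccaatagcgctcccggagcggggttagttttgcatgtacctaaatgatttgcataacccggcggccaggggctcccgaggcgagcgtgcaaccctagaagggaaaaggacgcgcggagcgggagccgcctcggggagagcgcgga

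At 24m, none of the 32 members tested was called by edgeR, DESeq2 or limma-voom, beside 0.084% of 13103 genes in edgeR, and 5 members (15.6%) were below an unadjusted p of 0.05 beside 11.8% of all genes. The median log2 fold change of the members was -0.06, beside 0.03 over all genes. The 5 members were Wnt5b, Wnt5a, Frzb, Lgr4 and Sfrp1.

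Wnt5b lay between 1.07 and 4.07 CPM (median 2.30) at 6m in the first run and between 3.26 and 4.96 CPM (median 3.95) at 24m, with overlap. The log2 fold change was 0.70 (SE 0.209, adjusted p = 0.245, edgeR). For Wnt5a the 6m mice lay between 3.62 and 6.50 CPM (median 5.10) and the 24m mice between 2.38 and 4.34 CPM (median 3.28), a log2 fold change of -0.53 (SE 0.173, adjusted p = 0.294, edgeR). For Frzb they lay between 9.47 and 16.5 CPM (median 12.4) and between 6.33 and 12.1 CPM (median 9.77), with a log2 fold change of -0.43 (SE 0.152, adjusted p = 0.327, edgeR). The ranges of all 3 genes overlapped. Lgr4 was at -0.40 (SE 0.146, adjusted p = 0.341, edgeR) and Sfrp1, an inhibitor that binds Wnt proteins, at 0.94 (SE 0.410, adjusted p = 0.405, edgeR), with 1 mouse of the 24m group at 11.8 CPM where the group's median was 2.55.

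Of the remaining ligands at 24m, the log2 fold changes were 0.35 for Wnt6, 0.27 for Wnt4, 0.02 for Wnt11, -0.07 for Wnt9a, -0.36 for Wnt2b and -0.78 for Wnt10b. Lrp6 was at -0.42, Lrp5 at -0.35, Axin1 at -0.27 and Axin2 at -0.01. The Frizzled receptors lay between -0.39 for Fzd4 and 0.09 for Fzd2, and Rspo3 was at 0.05. Dkk3 was at 0.70, Dkk2 at 0.33, Sfrp2 at 0.29, Sfrp5 at 0.27, Sfrp4 at -0.13 and Wif1 at -0.40. None of these passed the test.

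Mouse 4 at 24m was far below the other 24m mice for Lrp6, at 26.2 CPM where the next lowest mouse was at 66.3 CPM. It was also the lowest for Lrp5 (8.43 CPM, next 27.0), Fzd4 (8.67, next 27.8) and Lgr4 (22.2, next 33.3). For other members it was the highest, among them Rspo3 at 1.92 CPM (next 0.867). Without this mouse and without 6m mouse 4, a choice made after the data were seen, 1 member was called at 24m, Lrp6 at -0.37 (adjusted p = 0.0380, edgeR), beside 0.921% of all genes in the same fit.

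**Figure D3:**
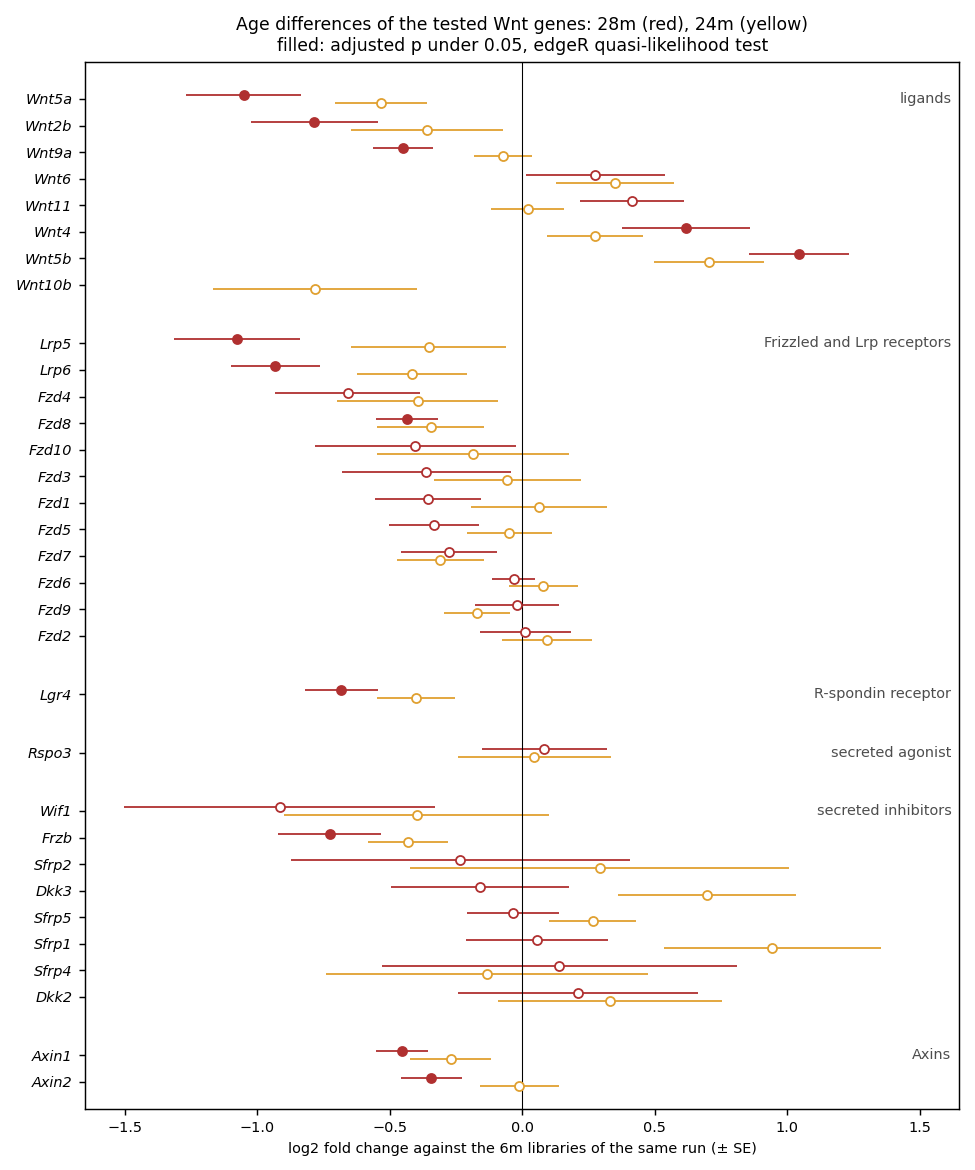
Log2 fold change (x axis, with SE) of the tested Wnt genes (rows, by role) at 28m in red and at 24m in yellow, each against the 6m libraries of the same run. Filled circles mark an adjusted p under 0.05, which 12 of 31 genes reached at 28m and 0 of 32 at 24m, and Wnt10b has a value at 24m only.

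Because both comparisons use the same 7 mice at 6m, their values are given side by side and their likeness is not counted as a result. The test of the difference between both age effects, fitted to all libraries at once with the run as a term, called none of 32 members with edgeR, DESeq2 or limma-voom, beside 0% of 13455 genes in edgeR. It called 0 members in limma-voom with the mouse as a replicate block as well. The edgeR fit held no term for the mouse, so both libraries of a 6m mouse counted as separate samples. Its SE and p-values do not account for this pairing. Without mouse 4 at 24m the same test called 1657 of 13492 genes (12.3%) and 1 of 32 members, Lrp6 (3.12%), and without any other single mouse it called 0 genes. With 6m mouse 4 left out as well, it called 0 of 13493 genes and 0 members. At an unadjusted p of 0.05 it held 1 member (3.12%, Wnt9a) beside 12% of all genes. For Wnt9a the age effect at 28m was lower than that at 24m by a log2 difference of -0.36 (SE 0.155, adjusted p = 0.399, edgeR). In the first run its 6m mice lay between 18.01 and 23.2 CPM (median 21.0) and its 24m mice between 15.04 and 23.4 CPM (median 19.5), which overlapped widely. Next came Lrp6 with -0.50 (SE 0.265, adjusted p = 0.440, edgeR) and Lrp5 with -0.71 (SE 0.384, adjusted p = 0.444, edgeR).

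Repeat libraries of the 7 mice at 6m showed how far a member moves when a library of the same mouse is prepared and sequenced again. No member differed between both runs with the mouse as a block in edgeR, DESeq2 or limma-voom (0 of 32, beside 0% of 12884 genes in edgeR), and 3 members (9.38%) were below an unadjusted p of 0.05 beside 8.17% of all genes. The log2 fold changes of the second against the first run were Rspo3 at -0.44, Fzd5 at 0.23 and Axin2 at 0.18. The SD of a member over repeat libraries of a mouse had a median of 0.175 on the log2 scale, and the SD between mice a median of 0.299 at 6m in the second run and 0.464 at 28m. The SD between mice was larger at 28m than at 6m in the second run in 27 of 32 members (84.4%), near the 87.7% of all genes tested at 28m, and larger than at 6m in the first run in 25 of 32 (78.1%) beside 81.3%. This was not tested.

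Sfrp4, Sfrp2 and Wif1, all secreted inhibitors, had the largest SD between the 6m mice of the second run among the 32 members. Sfrp4 had an SD between mice of 1.25 on the log2 scale and of 0.154 between repeats, Sfrp2 of 1.19 and 0.359, Wif1 of 0.899 and 0.494, and Dkk2 of 0.709 and 0.229. Mouse 2 at 6m was highest in both of its libraries for Sfrp4, Sfrp2, Dkk2, Fzd1 and Fzd2. For 16 of 32 members the largest difference between repeats was that of mouse 4, reaching 1.201 for Lrp5, 1.33 for Fzd4 and 1.498 for Wnt2b on the log2 scale. With the 6m libraries of the first run in place of those of the second, 9 of 32 members were called at 28m (28.1%) beside 22.96% of all genes, in place of 38.7% and 47.3%. Axin2, Fzd8, Wnt2b and Wnt4 were no longer among them, and Wnt10b was added, past the filter through its 6m libraries alone. The log2 fold changes of the lost calls were then -0.16 for Axin2 (against -0.34), -0.39 for Fzd8 (against -0.43), -0.80 for Wnt2b (against -0.78) and 0.53 for Wnt4 (against 0.62).

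**Figure D4:**
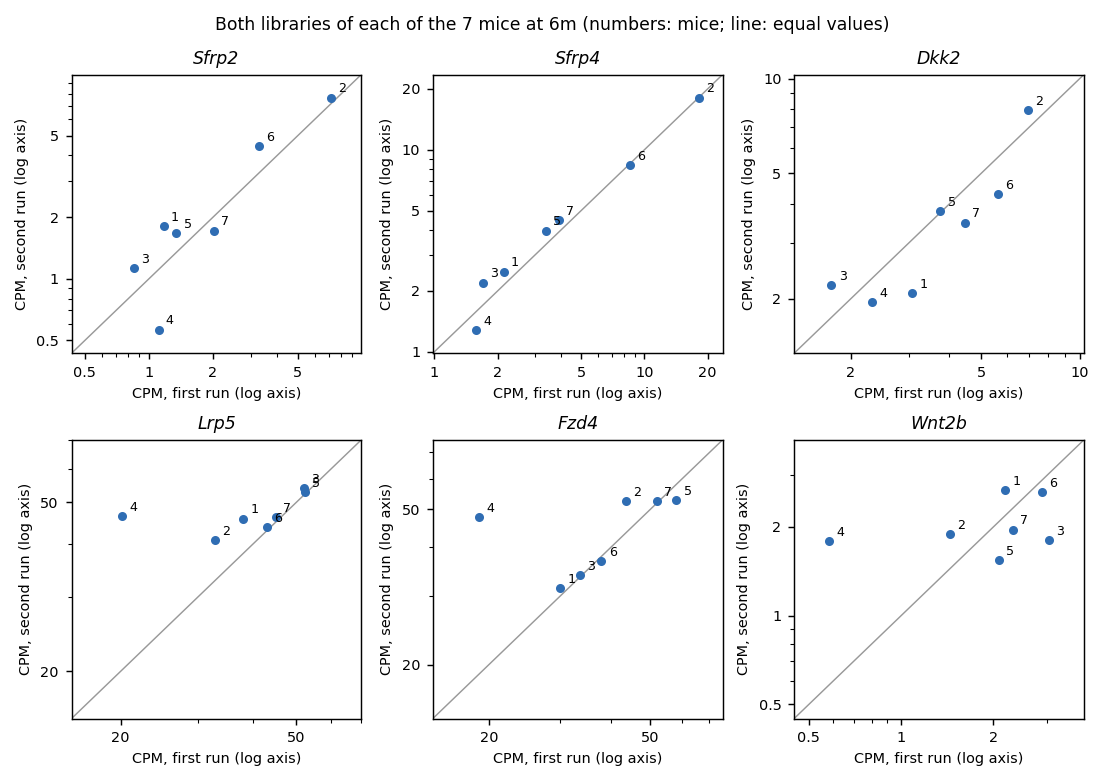
CPM of 6 Wnt genes in the library of the first run (x) and of the second run (y) of each of the 7 mice at 6m, on log axes, with numbers for mice and a line for equal values. Mouse 2 is highest in both libraries for Sfrp2, Sfrp4 and Dkk2, and mouse 4 lies far above the line for Lrp5, Fzd4 and Wnt2b.

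Other genes of the pathway, from lists of 69 genes beside the members, were called in 31 of 62 tested at 28m (50%), a share near the 47.3% of all genes, and in none at 24m. The calls were 27 lower and 4 higher, where 22.9% of all genes were called lower and 24.3% higher. Planar polarity genes fell in 8 of 10, among them Prickle2 (-0.87, adjusted p = 0.000648, edgeR) and Daam2 (-1.07, adjusted p = 0.000679, edgeR). Of 19 genes of cytoplasmic signalling 9 fell, among them Apc, a scaffold of the destruction complex (-0.86, adjusted p = 0.00108, edgeR), and 1 rose, the kinase gene Csnk1e (0.29, adjusted p = 0.0275, edgeR). Other receptors and coreceptors fell in 5 of 10, and nuclear factors fell in 5 and rose in 1 of 14, the latter being Pygo2 (0.37, adjusted p = 0.0138, edgeR). Of 5 target genes 2 rose, with Myc the lower in p (0.95, adjusted p = 0.00765, edgeR), and 0 of 3 genes of ligand release and 0 of 1 other secreted factors were called.

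Markers of other cell types moved beside these members at 28m, where 22.9% of all tested genes were called lower and 24.3% higher. Of 10 fibroblast markers 6 fell, and their sum was between 729 and 3780 CPM at 6m and between 460 and 1650 CPM at 28m. Of 8 endothelial markers 5 fell and 2 rose. Their sum was between 438 and 502 CPM at 6m in the second run and between 279 and 381 CPM at 28m, without overlap in that run. The 6m libraries of the first run summed to between 366 and 505 CPM, which overlapped the 28m mice. Of 7 mural cell markers 4 fell and 1 rose, with a sum between 361 and 440 CPM at 6m and between 241 and 380 CPM at 28m. Among the others, 4 of 7 slow fibre markers rose, 5 of 10 fast fibre markers rose and 1 fell, 1 of 5 satellite cell markers fell, and 1 each of 7 tendon, 7 Schwann cell and 6 adipocyte markers rose, while 0 of 6 immune markers were called. No marker was at 0 in all libraries of a group, and the part of these cell types in the Wnt results was not tested.

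**Figure D5:**
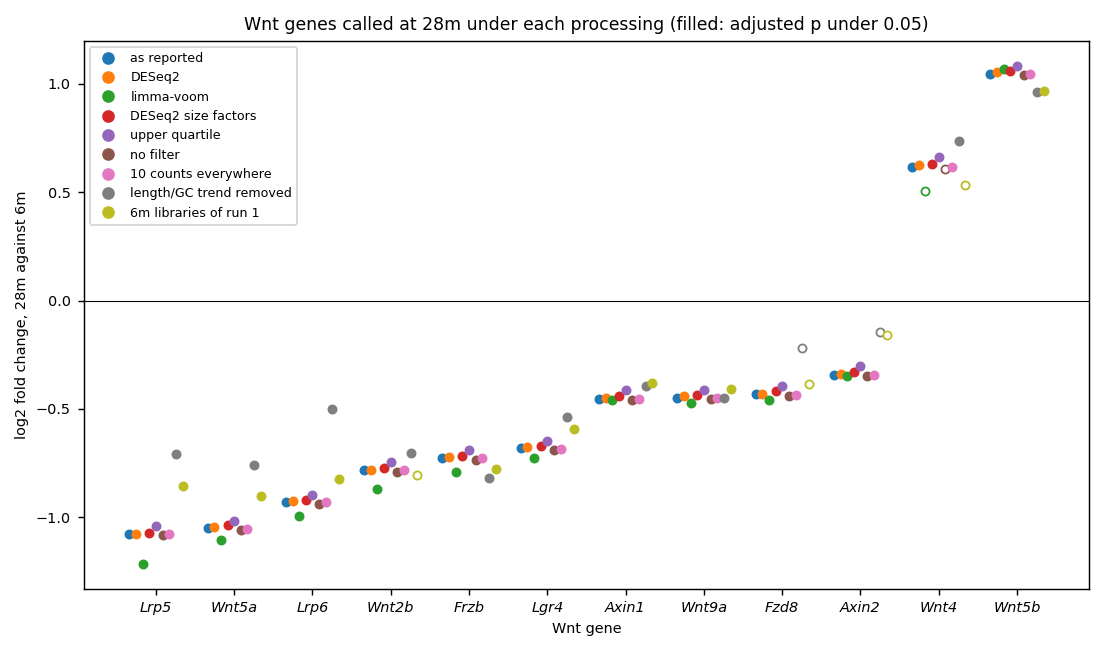
Log2 fold change at 28m (y axis) of the 12 called Wnt genes (x axis) as reported and under 8 other ways of processing, in colours, filled where the adjusted p was under 0.05. Each gene keeps its sign, and Axin2 and Fzd8 lose their call when a trend with length and GC content is removed.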

How the data were processed

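Poly-A RNA of the TA muscle was measured in 29 libraries, as single-end reads. Alignment to mm10 was done by the authors with STAR 2.5.4b, and the deposited values are raw counts, whole numbers of reads per gene symbol. The strand setting of the counting is not given in the sources used here, so Axin2, Wnt5a, Fzd5, Fzd6, Rspo3, Sfrp2, Wnt11 and Wnt7b, which overlap a gene on the opposite strand, are less certain; only the partner of Wnt7b is in the count table. The labels give a smaller amount of RNA per library than the methods, and the design text swaps the numbers of mice at 24m and 28m, for which the labels of the single samples were used. Nothing in the labels links mice to litters or cages.

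The gene family, and so its members, and the gene lists were chosen with earlier results of these data known. Within each comparison, low genes were removed by filterByExpr and libraries were scaled by TMM (edgeR 4.0.16 in R 4.3.3). Old mice were set against the 6m libraries of their own run by edgeR's quasi-likelihood test, adjusted by Benjamini-Hochberg, with calls at 0.05. Standard errors were derived from the test. The gap between the age effects was tested in 1 fit to all libraries with a term for each group of age and run and none for the mouse. The 6m libraries of both runs were compared with the mouse as a block, since the labels mark the second library of a mouse as a repeat. Printed CPM used TMM over all 29 libraries. Full values are given for every member called at 28m, the 3 lowest in p of each age comparison and of the difference, and the highest member of each role per exon length. Lengths and positions came from GENCODE for GRCm38, and promoter windows from RefSeq. Alternatives were DESeq2 1.42.0, limma-voom (limma 3.58.1), other scalings and filters, removal of a trend with length and GC content by splines of 5 degrees of freedom, the 6m libraries of the other run, and leaving out each mouse. The edgeR fit of each comparison was tried on simulated counts whose changes were known. DESeq2, limma-voom, the other scalings and filters and the trend removal were tried for 28m only, and limma-voom with the mouse as a block for the difference. The simulated libraries were drawn independently with no effect of the mouse, so they could not try how a fit handles repeat libraries. Plots were made in Python 3.11.15 (matplotlib 3.10.9).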

Additional observations from a re-analysis of the deposited data

Results flagged for a closer look

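In 60 groups examined (15 members in 4 groups), 6 held a sample far from the others of its group, where chance gives about 1 in 20. Mouse 4 at 24m was the lowest for Lrp6 at 26.2 CPM (nearest mouse 66.3 CPM) and for Axin1 at 10 CPM (nearest 19.6 CPM), and the highest for Rspo3 at 1.92 CPM (nearest 0.867 CPM). Mouse 3 at 24m was the highest for Dkk3 at 71.98 CPM (nearest 33.8 CPM). In the second run, 6m mouse 3 was the highest for Lrp6 at 105.4 CPM (nearest 90.7 CPM), and 28m mouse 7 was the lowest for Fzd8 at 3.07 CPM (nearest 4.38 CPM). The calls of Lrp6 and Fzd8 at 28m held in 15 of 15 fits that each left out 1 mouse. Fzd8 lost its call after removal of the length and GC trend (adjusted p = 0.126, edgeR) and with the 6m libraries of the other run (adjusted p = 0.0502, edgeR).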

How the results depend on the processing

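With 7 or 8 mice per group, a member that missed the threshold is not shown to be equal between ages. At 28m, DESeq2 called 14 of 48 members (29.2%) beside 35.5% of all genes, edgeR with no filter 13 of 48 (27.1%) beside 31.8%, and edgeR without the length and GC trend 11 of 31 (35.5%) beside 37.2%. Without that trend 8 members were called lower and 3 higher, and with the 6m libraries of the other run 8 were called lower. The number was 12 of 31 (38.7%) with limma-voom and other scalings, beside 46.8% to 48.2% of all genes, and 12 of 25 (48%) with the stricter filter, beside 49.6%. The number called higher was 1 with limma-voom, with no filter on low counts, with the 6m libraries of the other run, and with those libraries without 6m mouse 4 (an alternative added after the data were seen), where Wnt4 lost its call each time. The median log2 fold change of the members at 28m was -0.21 after removal of the length and GC trend, -0.16 with the 6m libraries of the other run and -0.21 with those libraries without 6m mouse 4. Leaving out each mouse in turn gave 10 to 15 members called at 28m, 9 to 12 lower and 1 to 3 higher, while 40.6% to 51.7% of all genes were called, and a median between -0.37 and -0.26. The lowest count came without 6m mouse 4 and the highest without 28m mouse 4, and 10 of the 12 calls held in 15 of 15 fits. At 24m, leaving out each mouse gave 0 calls and a median between -0.18 and -0.02, and leaving out 24m mouse 4 together with 6m mouse 4 gave 1 call, Lrp6. The difference between the age effects gave 0 to 1 calls, the 1 being Lrp6 without 24m mouse 4 (where 12.3% of all genes were called, against 0%, and again 0 genes and 0 members without 6m mouse 4 as well), and 0 with the mouse as a replicate block in limma-voom. The 6m libraries of both runs gave 0 calls with the mouse as a block, without that block, and without each mouse, though 1.44% of all genes were called without 6m mouse 4. Of 738 log2 fold changes of members over the alternatives at 28m, 692 kept their direction, and none of the 46 that changed it belonged to a called member.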
